A study of Mus musculus with 19 samples.

Results

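The genes described here are 45 genes of the cell cycle, of which 31 act in G2 and mitosis, 10 in S phase and 4 at the G1 checkpoint. They were taken from a list of symbols and looked up in the platform annotation of a mouse expression array, with the brightest probe set standing for each gene. Of the 45 genes, 44 were found among the 18193 genes named on the array, and Ccnb1 was not found by symbol. A filter on low values passed 36 of them among 11715 genes in all, comprising 23 mitosis, 9 S phase and 4 G1 genes.

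Tissue came from the prostate of C57BL/6J mice, a wild-type inbred strain, and was measured on 19 arrays in 4 groups. These are the ventral prostate on a high fat diet (HFD VP, 5 arrays), the ventral prostate on a control diet (control VP, 5 arrays), the dorsolateral prostate on a high fat diet (HFD DLP, 4 arrays) and the dorsolateral prostate on a control diet (control DLP, 5 arrays). Both diets were given without restriction for 12 weeks from 8 weeks of age, to 5 mice per diet. Arrays are named by group and by the replicate number in their titles. The labels do not say which mouse gave which array, so both lobes may come from the same mice, and a p-value therefore speaks only of the spread seen among the arrays at hand. Whole lobes were used, so fewer cells of a type and less RNA per cell cannot be told apart.

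A dividing cell copies its DNA in S phase and parts the copies in mitosis. G1 cyclins and their kinases push a cell toward S phase, and inhibitors such as Cdkn1b hold it back. E2F factors switch on replication genes, whereas a later wave of mitosis genes is driven through CCAAT boxes, bound by NF-Y, and through the cell cycle genes homology region (CHR), bound by the DREAM and MuvB-FOXM1 complexes. The adult prostate epithelium divides slowly and depends on androgens, so transcripts of the mitosis wave are scarce in the resting gland and come from the few cells in cycle.

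The start-site regions of 8 members are shown because their letters divide the mitosis genes from the S phase genes. Each runs from 120 bases before to 20 bases after the annotated start, 5′ to 3′ on the gene's own strand, from RefSeq (GRCm38.p6). Capitals mark CCAAT, the CHR letters TTTGAA or TTCGAA, and the E2F letters TTCCCGC or TTGGCGC, on either strand. TTGGCGC shares letters with the reverse of CCAAT, so the marks can overlap. Cdk1, Top2a, Cdc20, Ube2c and Kif11 are mitosis genes with CCAAT and CHR letters, Mcm6 and Rrm1 are S phase genes with CCAAT and E2F letters, and Ncaph is a mitosis gene with none of these letters in this stretch.
Cdk1, chr10:69352893-69353032, minus strand: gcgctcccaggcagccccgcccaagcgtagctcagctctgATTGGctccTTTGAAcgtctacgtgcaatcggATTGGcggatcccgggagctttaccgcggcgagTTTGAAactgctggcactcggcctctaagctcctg
Top2a, chr11:99024170-99024309, minus strand: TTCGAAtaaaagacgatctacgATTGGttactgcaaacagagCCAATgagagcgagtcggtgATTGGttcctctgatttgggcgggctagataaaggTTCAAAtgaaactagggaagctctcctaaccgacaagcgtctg
Cdc20, chr4:118437324-118437463, minus strand: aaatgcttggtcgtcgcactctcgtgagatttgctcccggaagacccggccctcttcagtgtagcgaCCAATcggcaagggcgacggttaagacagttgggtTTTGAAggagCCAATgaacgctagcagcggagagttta
Ube2c, chr2:164769809-164769948, plus strand: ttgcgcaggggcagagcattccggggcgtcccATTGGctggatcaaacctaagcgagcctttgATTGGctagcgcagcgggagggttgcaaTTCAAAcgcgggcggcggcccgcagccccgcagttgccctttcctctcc
Kif11, chr19:37376262-37376401, plus strand: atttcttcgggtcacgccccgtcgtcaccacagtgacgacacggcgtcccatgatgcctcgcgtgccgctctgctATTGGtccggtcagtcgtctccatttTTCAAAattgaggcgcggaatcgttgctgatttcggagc
Mcm6, chr1:128359686-128359825, minus strand: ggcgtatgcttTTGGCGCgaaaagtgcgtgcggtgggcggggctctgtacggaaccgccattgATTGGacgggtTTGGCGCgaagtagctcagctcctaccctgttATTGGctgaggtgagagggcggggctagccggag
Rrm1, chr7:102441575-102441714, plus strand: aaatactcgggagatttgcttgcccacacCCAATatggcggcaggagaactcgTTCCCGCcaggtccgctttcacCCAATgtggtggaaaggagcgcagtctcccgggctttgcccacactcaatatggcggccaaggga
Ncaph, chr2:127133935-127134074, minus strand: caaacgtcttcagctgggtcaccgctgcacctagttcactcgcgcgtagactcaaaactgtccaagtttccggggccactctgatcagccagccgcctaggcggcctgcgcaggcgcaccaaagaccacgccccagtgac

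Over the full window of 300 bases, from 250 before to 50 after a start, 27 of 31 mitosis genes, 9 of 10 S phase genes and 3 of 4 G1 genes had a listed promoter. A gene was counted when at least 1 of its listed starts held the letters. CCAAT was present for 22 of the 27 mitosis genes (81.5%) and 8 of the 9 S phase genes (88.9%), against 41.1% of all 27025 genes in the table. The CHR letters were present for 21 mitosis genes (77.8%) and 2 S phase genes (22.2%), against 21.7% of all genes. The E2F letters divided the members the other way, with 6 mitosis genes (22.2%) and 5 S phase genes (55.6%), against 7.79% of all genes. Among the 9457 tested genes with a listed promoter, the shares were 42.3% for CCAAT, 16% for CHR and 13.9% for E2F letters. CCAAT and CHR letters stood together for 20 mitosis genes (74.1%), against 8.61% of all genes. A match describes these letters and is not a measured binding site.

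Each value below is a deposited array value turned to log2. All 19 arrays hold 1 common set of values in different order, which means that a value shows only where a probe set ranks on an array, and the median is 1.85 throughout. A probe set passed the filter when it lay above that median on at least 4 arrays. Levels of different genes are not compared, because probe sets differ in brightness. A gene is said to have risen or fallen when its adjusted p in limma, over all 11715 genes, was below 0.05. Within a group, the whole series had a median gene SD of 0.171 in HFD VP, 0.176 in control VP, 0.116 in HFD DLP and 0.133 in control DLP. Luminal markers Krt8, Krt18 and Epcam lay above the array median on all 19 arrays. Of the T cell markers, Cd3e, Cd4 and Cd2 lay above it on 0 arrays, Cd3d on 1, Cd3g on 4 and Cd8a on 15. Of the B and plasma cell markers, Cd79a and Cd79b lay above it on 0 arrays, Ms4a1 and Cd22 on 4 each, Mzb1 on 11 and Jchain on 19.

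Wide differences between single arrays were common among the division genes, while the widest difference of Ncaph was between the lobes. The arrays control VP 2 and control VP 3 carried high values of nearly every mitosis and S phase gene at once. When each gene was set relative to its own mean over the 19 arrays, the mean over the 23 mitosis genes was 0.94 on control VP 2 and 1.01 on control VP 3. The other control VP arrays lay between -0.30 and 0.10, the HFD VP arrays between -0.41 and 0.19, and the DLP arrays between -0.31 and 0.22. S phase genes showed the same arrays high, with means of 0.80 and 0.77. The remaining VP arrays ran from -0.20 to 0.39 for S phase, and the DLP arrays from -0.31 to -0.05.

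**Figure D1:**
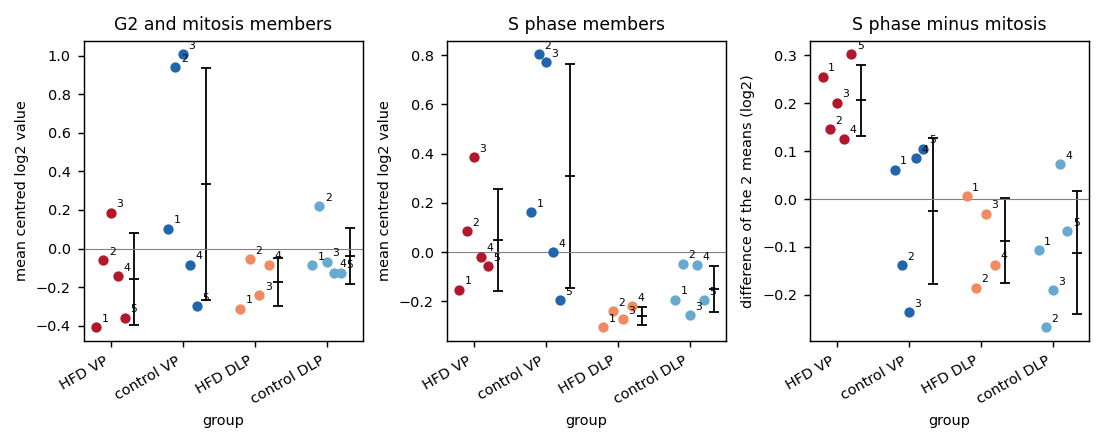
Mean of the 23 mitosis genes, mean of the 9 S phase genes, and the S phase mean minus the mitosis mean (vertical axes, log2 after subtracting each gene's mean over 19 arrays) in the 4 groups; numbered points are arrays, and bars are the group mean ± SD. Control VP 2 and control VP 3 stand at 0.94 and 1.01 for mitosis, apart from every other array, of which the highest is control DLP 2 at 0.22.

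For 29 of the 36 members, the highest VP value and the next were both on control VP 2 and control VP 3. That was so for 21 of 23 mitosis genes, 8 of 9 S phase genes and 0 of 4 G1 genes, against 337 of all 11715 genes (2.88%). Counting the members below the filter, it held for 36 of 44. The exceptions among the mitosis genes were Ncaph and Kif11. Kif11 read 1.98 on control VP 2, 1.94 on control VP 5 and 1.86 on control VP 3. The exception among S phase genes past the filter was Rrm1, whose value on HFD VP 3 lay between those of the 2 arrays. These 2 arrays were picked out by the members' own values, so the counts describe them and carry no test.

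Genes of several steps of mitosis shared this peak, and those named in the next sentences were chosen after their values were seen. Cdc20, the activator of the anaphase-promoting complex, read 2.22, 2.72, 3.05, 2.95 and 2.24 on the HFD VP arrays and 3.03, 4.46, 4.63, 2.41 and 2.28 on the control VP arrays. The VP diet difference was -0.72 for this Cdc20 probe set and -0.27 for another, also above the array median on all 19 arrays. Ube2c, the ubiquitin carrier of the anaphase-promoting complex, read 1.55 to 2.50 in HFD VP, against 3.65 and 3.63 on control VP 2 and 3 and 1.61 to 2.56 on the other control VP arrays. Cyclins Ccna2 and Ccnb2, the partners of Cdk1, stood at 3.57 and 3.32 on control VP 3. Their highest values in HFD VP were 2.45 and 2.40. The spindle checkpoint gene Mad2l1 reached 3.75 on control VP 2, against at most 3.03 in HFD VP. Prc1, which bundles the central spindle before cytokinesis, was at 3.07 and 3.04 on the same 2 arrays and at most 2.16 in HFD VP.

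The 7 mitosis genes below the filter followed the same arrays. Tpx2, which activates Aurora A on the spindle, read 2.92 and 2.90 on control VP 2 and 3 and at most 1.82 on any other array. Aurkb, the kinase of the chromosomal passenger complex, read 2.33 and 2.47 there and at most 1.84 elsewhere. Kif20a, a kinesin of cytokinesis, read 2.21 and 2.44, with at most 1.82 elsewhere. Bub1, Cenpe, Ncapg and Kif23 also had their highest VP value and the next on these arrays. Of these 7 genes, 6 lay above the array median on 2 arrays and Kif23 on 3, short of the 4 that the filter asks for. Tyms, the thymidylate synthase of nucleotide supply and the only S phase gene below the filter, ran from 1.07 to 1.75 over all arrays, near or below the array median.

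**Figure D2:**
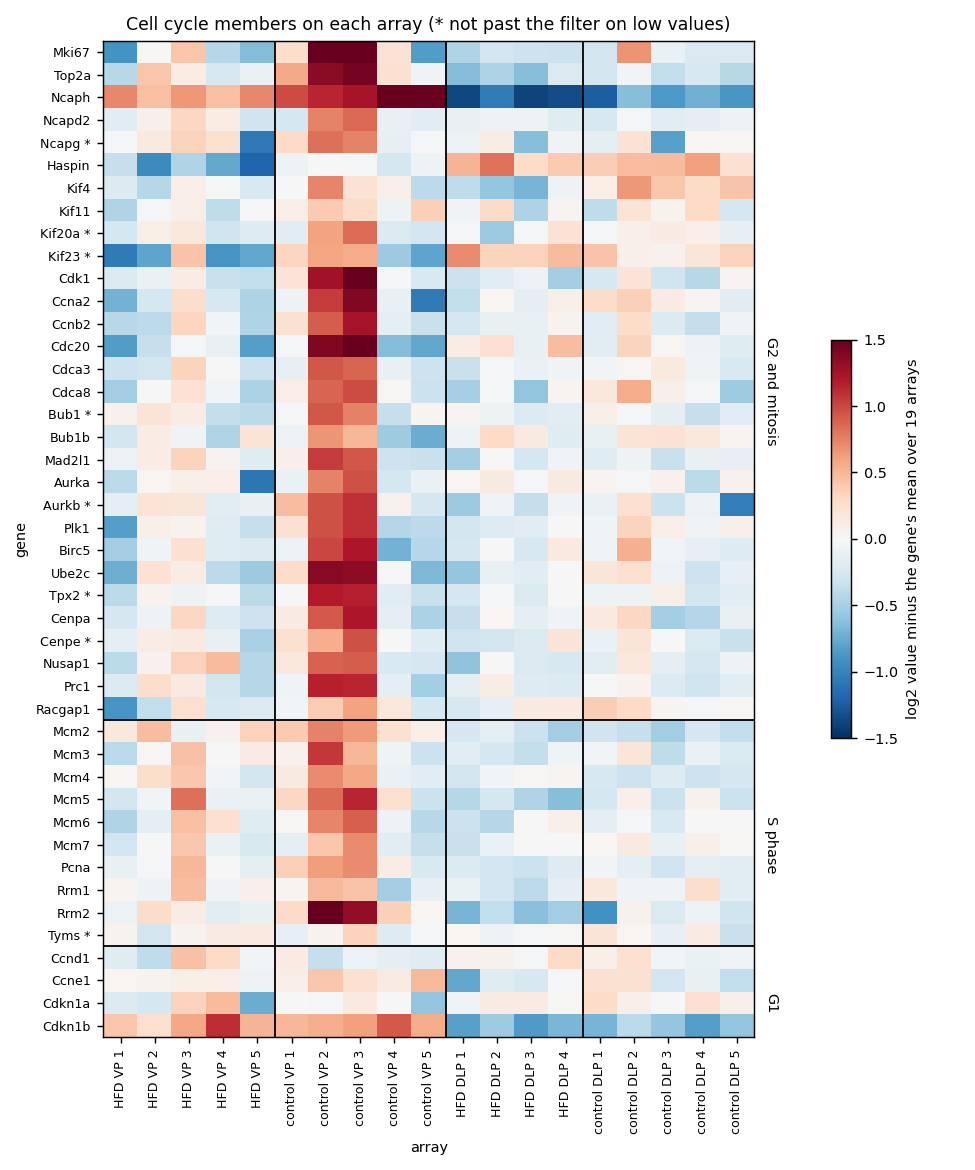
The 44 members found (rows, by role) on the 19 arrays (columns, by group), coloured by log2 value minus the gene's mean over the arrays, with colours capped at the ends of the scale and an asterisk for the 8 members below the filter. Control VP 2 and control VP 3 form a dark red pair of columns across the mitosis and S phase rows, while Ncaph and Cdkn1b change colour between the lobes.

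Other genes of the cell cycle moved with the members on these arrays. Of 34 tested genes in a list of further G2 and mitosis genes, 22 had their highest VP value and the next on control VP 2 and 3, as had 17 of 27 further replication genes and 1 of 18 further G1/S control genes. None of the 55 tested markers of other cell types did, whether luminal, basal, smooth muscle, fibroblast, endothelial, T cell, B and plasma cell, macrophage, nerve and glia or adipocyte. That is near the share of all genes, 2.88%, so the marker count does not set them apart. Some marker lists had the same sign on both arrays and some did not. Smooth muscle markers averaged -0.42 on control VP 2 and -0.53 on control VP 3 (8 genes), and adipocyte markers 0.42 and 0.27 (2 genes). Macrophage markers averaged -0.24 on control VP 2 and 0.93 on control VP 3 (7 genes, relative to their means), and stood highest on HFD VP 3 at 1.63. B and plasma cell markers averaged -0.59 and 1.14 on the same pair (4 genes), and luminal markers 0.01 and 0.21 (8 genes). The Gapdh 3′ minus 5′ signal, a measure of RNA integrity, was -0.117 and -0.259, within the range of the other VP arrays (-0.413 to -0.032). The part of cell types or of RNA integrity in the values of the pair was not tested.

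The spread of the members within a group shows the same thing. In HFD VP the median SD was 0.323 for mitosis genes and 0.265 for S phase genes. In control VP it was 0.667 for mitosis genes and 0.444 for S phase genes, several times the 0.176 of all genes. DLP arrays lay closer together, with 0.194 and 0.143 in HFD DLP and 0.203 and 0.102 in control DLP for mitosis and S phase genes. The 4 G1 genes had a median SD of 0.331 in HFD VP and 0.171 in control VP, so the wide spread of control VP did not extend to them.

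The first comparison asked whether a high fat diet altered division genes in the ventral prostate. Most members had lower means on the diet, but of the 36 tested only Ncaph passed the test, as lower. Across all genes 0.171% passed in this comparison, 0.0683% as lower. Negative differences were found for 33 of 36 members, including all 23 mitosis genes, with a median log2 difference of -0.49 for mitosis, -0.24 for S phase and -0.02 for G1, against 0.01 over all genes. Among these mitosis genes, Plk1 and Kif4 passed the filter on low values through control arrays alone, which favoured negative diet differences for them. The mean over the mitosis genes was -0.16 ± 0.24 in HFD VP and 0.33 ± 0.60 in control VP (SD, n = 5 each), a gap smaller than the spread of control VP. At an unadjusted p below 0.05 there were 9 of 36 members, against 11.0% of all genes. Values did not overlap between the diets for 3 members, Ncaph, Haspin and Ccne1, compared with 2.58% of all genes.

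Without control VP 2 and control VP 3 the picture changed. The median log2 difference was then -0.05 for mitosis genes and 0.11 for S phase genes, 19 of 36 members were negative, and 0 passed the limma test, with 2 at an unadjusted p below 0.05. The difference in the mean of the mitosis genes was -0.06, against -0.49 with all arrays. The lower means in HFD VP for most members thus rested on the 2 high control arrays, which were set aside after their values had been seen.

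Ncaph encodes the kleisin subunit of condensin I, a ring that compacts chromosomes in mitosis. It read 5.54, 5.28, 5.47, 5.27 and 5.54 on the HFD VP arrays and 5.80, 5.97, 6.06, 6.46 and 6.31 on the control VP arrays. All HFD VP values lay below all control VP values, and the 2 arrays high for other members were in the middle of the control values here. The means were 5.42 ± 0.14 in HFD VP and 6.12 ± 0.27 in control VP (SD, n = 5 each), and the gene fell by 0.70 on the log2 scale, or 1.63-fold. The limma SE was 0.14, with adjusted p = 0.0499. A two-sided exact permutation test gave 0.0079, the lower limit for 5 against 5 arrays. The call lay at the edge of the threshold. It held in 4 of 19 fits that left out 1 array, with limma adjusted p from 0.0229 to 0.121. Without control VP 2 and 3 the difference was -0.77, with limma adjusted p = 0.118.

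The probe set behind these values has the suffix x_at, by which the manufacturer marks probe sets with probes that can match other transcripts. The probe sets of Cdc20, Aurkb, Mcm5, Rrm2 and Ccne1 carry this suffix as well. The other Ncaph probe set on the array averaged 4.45 ± 0.11 in HFD VP and 4.89 ± 0.19 in control VP (SD, n = 5 each). All its HFD VP values, up to 4.58, also lay below its control VP values, from 4.65. Its difference was -0.44, and in a limma fit over all probe sets its adjusted p was 0.123. Ncaph was the condensin member without the peak on control VP 2 and 3. Ncapd2, another condensin I subunit, was at 3.03 and 3.13 on control VP 2 and 3 and at most 2.59 in HFD VP, with a diet difference of -0.20 and limma adjusted p = 0.755.

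Haspin, the kinase that marks histone H3 at centromeres in mitosis, read 1.37, 0.77, 1.27, 0.95 and 0.53 in HFD VP and 1.64, 1.72, 1.70, 1.46 and 1.65 in control VP. The groups did not overlap, and all 10 VP values lay below the array median, so the gene passed the filter through its DLP values. Its log2 difference was -0.66 (SE 0.16), with adjusted p = 0.106 in limma and an exact permutation p of 0.0079. Over 12 alternatives the limma adjusted p ran from 0.0322, with equal weights and the only one below the threshold, to 0.322, without control VP 2 and 3. In 19 fits without 1 array it ran from 0.0795 to 0.229 and never passed.

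Markers of cells in cycle had large differences and larger spread. Mki67, the Ki-67 antigen that coats mitotic chromosomes, read 1.93, 2.84, 3.24, 2.40 and 2.17 in HFD VP and 3.08, 4.53, 4.51, 3.04 and 1.99 in control VP. The groups overlapped, and control VP 5 was close to the lowest of all. The difference was -0.91 (SE 0.38), with adjusted p = 0.362 in limma. Without control VP 2 and 3 it was -0.19. Top2a, the topoisomerase that untangles replicated DNA, read 3.11, 3.94, 3.64, 3.28 and 3.42 in HFD VP, against 4.09, 4.88, 4.96, 3.75 and 3.47 in control VP. Its difference of -0.75 had a limma adjusted p of 0.196, and was -0.29 without the 2 arrays. Cdk1, the kinase that drives entry into mitosis, read 2.21, 2.32, 2.53, 2.09 and 2.05 in HFD VP and 2.62, 3.68, 3.95, 2.41 and 2.19 in control VP. Its difference was -0.73 with all arrays, at limma adjusted p = 0.289, and -0.16 without the pair.

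Kif4, a kinesin that binds chromosome arms, read 1.33, 1.11, 1.64, 1.52 and 1.31 in HFD VP and 1.53, 2.27, 1.75, 1.62 and 1.14 in control VP. Most of these values lay below the array median, the groups overlapped and the difference was -0.28, with adjusted p = 0.641 in limma.

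**Figure D3:**
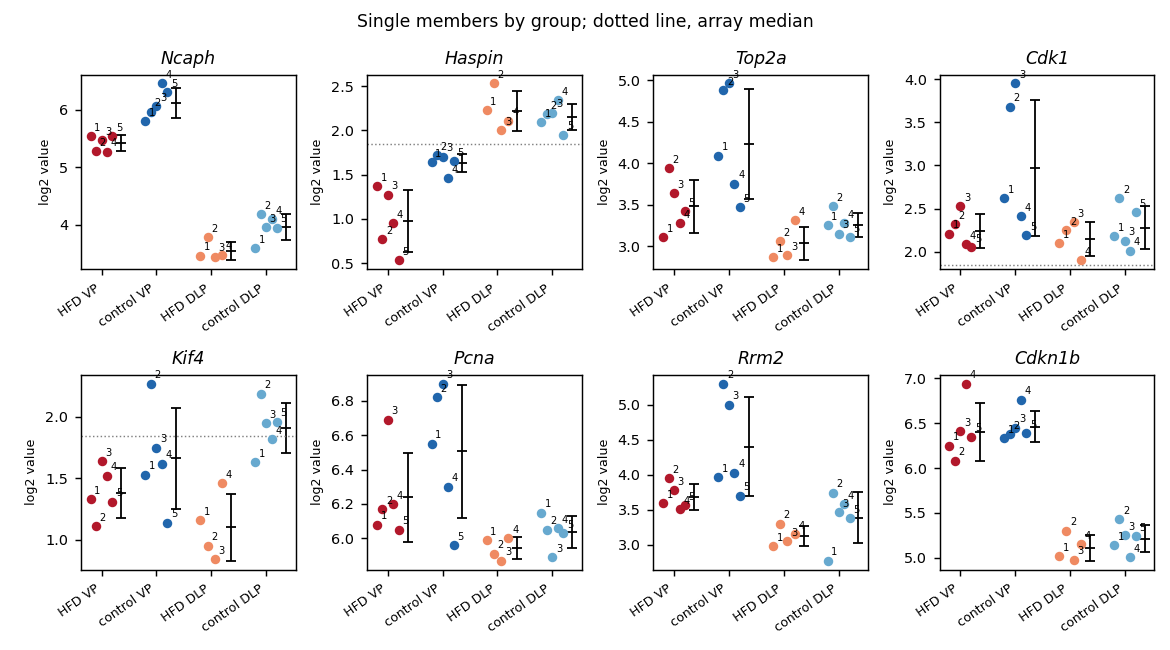
Log2 values of 8 members on each array (numbered points) by group, with the group mean ± SD as bars and the array median as a dotted line where it falls in the panel. Ncaph and Haspin separate HFD VP from control VP, whereas Top2a, Cdk1, Pcna and Rrm2 are high on control VP 2 and control VP 3 and overlap between the diets.

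S phase genes followed the same arrays with smaller steps. Rrm2, the regulated subunit of ribonucleotide reductase, which makes DNA precursors, read 3.59, 3.95, 3.78, 3.51 and 3.56 in HFD VP and 3.96, 5.30, 5.00, 4.03 and 3.70 in control VP. The difference was -0.72 (limma adjusted p = 0.286) with all arrays and -0.21 without control VP 2 and 3. Its partner Rrm1 read 3.34, 3.22, 3.76, 3.23 and 3.37 in HFD VP and 3.34, 3.78, 3.73, 2.78 and 3.18 in control VP, a difference of 0.02. The lowest Rrm1 value in VP was on control VP 4.

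Pcna, the clamp that holds DNA polymerases, read 6.08, 6.17, 6.69, 6.20 and 6.05 in HFD VP and 6.55, 6.82, 6.90, 6.30 and 5.96 in control VP, with a difference of -0.27 and limma adjusted p = 0.515. Mcm2 of the replicative helicase read 3.31, 3.62, 3.05, 3.22 and 3.50 in HFD VP and 3.55, 3.90, 3.79, 3.39 and 3.26 in control VP. Mcm6 of the same helicase read 3.19, 3.51, 4.09, 3.89 and 3.46 in HFD VP and 3.66, 4.37, 4.54, 3.55 and 3.23 in control VP. Each helicase gene overlapped between the diets, and the 6 Mcm genes had differences between -0.38 (Mcm5) and -0.14 (Mcm7). The array HFD VP 3 was the highest of HFD VP for Mcm6, Pcna and Rrm1, and its macrophage marker mean of 1.63 was also the highest of all arrays; the part of macrophages in these values was not tested.

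S phase genes were set against mitosis genes on each array by subtracting the mitosis mean from the S phase mean. The difference was 0.21 ± 0.07 in HFD VP (SD, n = 5, from 0.13 to 0.30) and -0.02 ± 0.15 in control VP (SD, n = 5, from -0.24 to 0.10), without overlap. Within control VP the lowest values were those of arrays 2 and 3, on which mitosis genes stood higher than S phase genes. The other control VP arrays (n = 3) ran from 0.06 to 0.10, also below the HFD VP values. The separation depended on which genes were taken. Without Ncaph and Haspin the range was 0.12 to 0.31 in HFD VP and -0.27 to 0.20 in control VP, and over all members found it was 0.09 to 0.35 in HFD VP and -0.25 to 0.11 in control VP, so that the diets overlapped in both cases. In DLP the same difference averaged -0.09 ± 0.09 in HFD DLP (SD, n = 4) and -0.11 ± 0.13 in control DLP (SD, n = 5), with overlapping ranges. These are descriptions without a test.

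None of the 4 G1 genes had both of its highest VP values on control VP 2 and 3. Ccne1 was still high on both, at 2.18 and 2.00, below only control VP 5 at 2.25. Ccnd1, the cyclin that couples growth signals to the cycle, read 4.80, 4.60, 5.42, 5.27 and 4.94 in HFD VP and 5.11, 4.64, 4.89, 4.85 and 4.80 in control VP, with limma adjusted p = 0.758. Ccne1, the cyclin of the G1/S transition, read 1.79, 1.82, 1.85, 1.86 and 1.68 in HFD VP and 1.86, 2.18, 2.00, 1.89 and 2.25 in control VP. Its groups touched at 1.86 and did not overlap before rounding, the difference was -0.24, and the limma adjusted p was 0.685. The Cdk inhibitor Cdkn1a, known as p21, read 2.58, 2.53, 3.13, 3.26 and 2.05 in HFD VP and 2.78, 2.77, 2.93, 2.78 and 2.2 in control VP, a difference of 0.02. The related inhibitor Cdkn1b, known as p27, read 6.25, 6.08, 6.41, 6.94 and 6.35 in HFD VP and 6.33, 6.38, 6.45, 6.76 and 6.39 in control VP, a difference of -0.05.

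The second comparison took the same diets in the dorsolateral prostate. None of the 36 members passed the limma test there, with 2 (5.56%) at an unadjusted p below 0.05, against 1171 of all 11715 genes, and 0.0512% of all genes passed, 0.0341% as higher and 0.0171% as lower. Differences were negative for 28 members, with a median of -0.11 for mitosis, -0.10 for S phase and -0.09 for G1 genes, against 0.01 over all genes. The diets did not overlap for 2 members, Kif4 and Mki67, compared with 3.15% of all genes.

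Kif4 had the smallest adjusted p. It read 1.16, 0.95, 0.84 and 1.46 in HFD DLP and 1.63, 2.19, 1.95, 1.82 and 1.96 in control DLP, so every HFD DLP value was below the array median and below all control DLP values. The difference was -0.81 (SE 0.15), or 1.75-fold lower, with limma adjusted p = 0.0597. The exact permutation test gave 0.0159, the lower limit for 4 against 5 arrays. Kif4 passed the filter on low values through 4 control arrays (control DLP 2, 3 and 5 and control VP 2) and no HFD array, so a diet difference was favoured by its selection. Its limma adjusted p ran from 0.0267 to 0.197 over 19 fits without 1 array, 4 of them below the threshold. Over 12 alternatives it ran from 0.0330 to 0.364, with 2 below the threshold, 1 of which left out control VP 2 and 3. Mki67 read 2.37, 2.53, 2.51 and 2.50 in HFD DLP and 2.55, 3.50, 2.72, 2.60 and 2.61 in control DLP. The gap between the diets was narrow, only control DLP 2 stood clearly higher, and the limma adjusted p was 0.779.

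Ncaph read 3.46, 3.78, 3.44 and 3.48 in HFD DLP and 3.59, 4.18, 3.96, 4.10 and 3.95 in control DLP. The difference of -0.41 (SE 0.11) ran the same way as in VP, the groups overlapped through HFD DLP 2 and control DLP 1, and the limma adjusted p was 0.194. Rrm1 read 3.20, 3.01, 2.91 and 3.15 in HFD DLP and 3.46, 3.25, 3.25, 3.56 and 3.14 in control DLP, with a difference of -0.26 and limma adjusted p = 0.508. Ccne1 read 0.99, 1.58, 1.53 and 1.75 in HFD DLP and 1.99, 1.99, 1.48, 1.65 and 1.40 in control DLP, with a difference of -0.24. Haspin read 2.23, 2.53, 2.00 and 2.11 in HFD DLP and 2.09, 2.18, 2.20, 2.34 and 1.95 in control DLP, so its DLP values overlapped between the diets.

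Other members spanned narrow ranges in DLP, with overlap between the diets. Top2a read 2.87, 3.06, 2.89 and 3.31 in HFD DLP and 3.25, 3.48, 3.15, 3.28 and 3.11 in control DLP. Cdk1 read 2.10, 2.25, 2.34 and 1.90 in HFD DLP and 2.18, 2.62, 2.13, 2.01 and 2.46 in control DLP. For both genes control DLP 2 was the highest array of the lobe. It held the highest DLP value for 20 of the 36 members, 14 of them mitosis genes, and the highest mitosis mean of the lobe (0.22). Nerve and glia markers averaged 2.37 on this array, 1.66 on control DLP 4 and 2.92 on control DLP 5 (5 genes, relative to their means). The mitosis means of control DLP 4 and control DLP 5 were both -0.13. The part of nerve tissue in these values was not tested.

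Of the S phase genes, Rrm2 read 2.98, 3.30, 3.05 and 3.15 in HFD DLP and 2.77, 3.74, 3.46, 3.58 and 3.38 in control DLP. Pcna read 5.99, 5.91, 5.87 and 6.00 in HFD DLP and 6.15, 6.05, 5.89, 6.06 and 6.03 in control DLP. Both genes overlapped between the diets, and the lowest Rrm2 value of the lobe was on control DLP 1. Mcm2 read 2.91, 3.01, 2.83 and 2.63 in HFD DLP and 2.86, 2.81, 2.64, 2.90 and 2.79 in control DLP. Mcm6 read 3.32, 3.21, 3.65 and 3.72 in HFD DLP and 3.50, 3.61, 3.41, 3.65 and 3.64 in control DLP. For both helicase genes the control DLP values lay inside the range of the HFD DLP values. The G1 genes overlapped as well. Ccnd1 read 5.05, 5.05, 4.96 and 5.28 in HFD DLP and 5.06, 5.23, 4.94, 4.88 and 4.92 in control DLP. Cdkn1a read 2.73, 2.91, 2.91 and 2.81 in HFD DLP and 3.06, 2.87, 2.78, 3.04 and 2.86 in control DLP. Cdkn1b, the other inhibitor, stood within a narrow band on both diets. It read 5.02, 5.30, 4.98 and 5.15 in HFD DLP and 5.14, 5.43, 5.25, 5.01 and 5.24 in control DLP.

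The diet differences of the lobes were compared by their own test. None of the 36 members passed it in limma, with 2 (5.56%) at an unadjusted p below 0.05, against 8.86% of all genes, and 0.00854% of all genes passed. The smallest adjusted p was 0.308, for Haspin, whose diet difference was 0.72 more positive in DLP than in VP. The lower Ncaph on the high fat diet in VP was therefore not shown to differ from DLP, where the difference between the lobes' diet effects was 0.29 with limma adjusted p = 0.682.

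**Figure D4:**
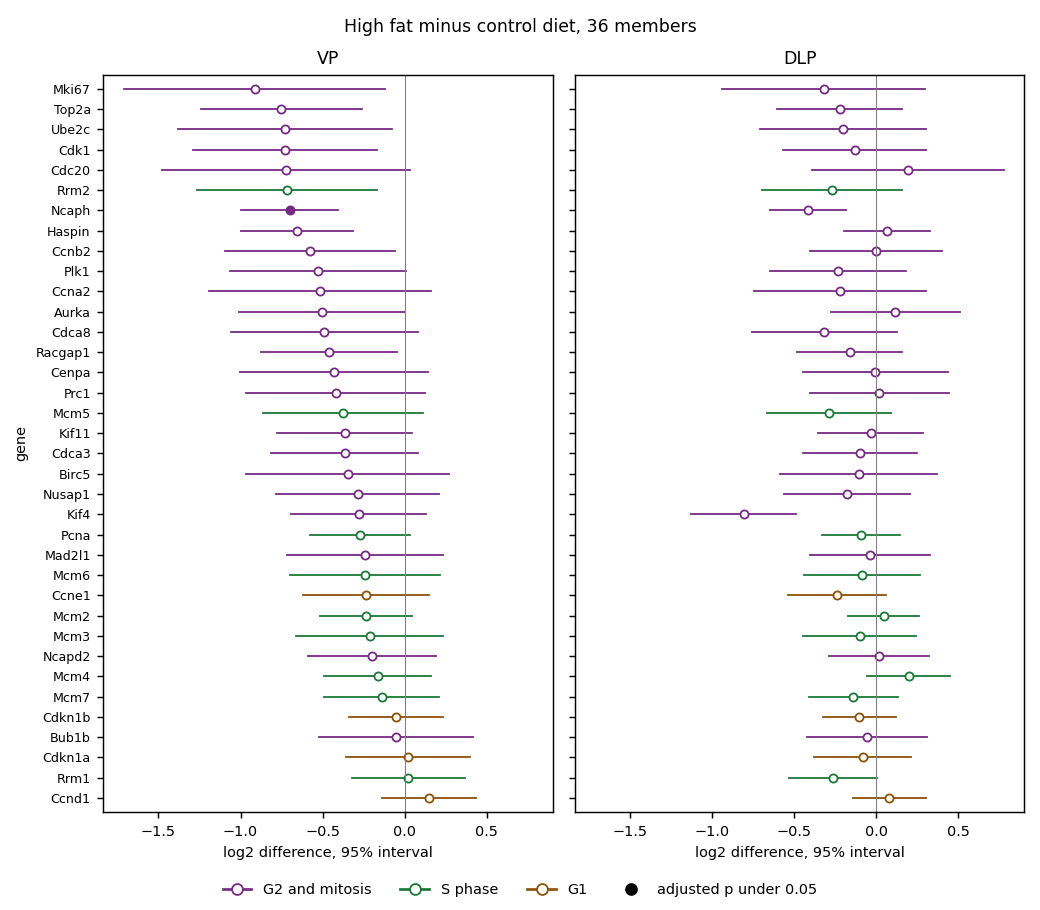
HFD minus control log2 differences (horizontal axis) with limma 95% intervals for 36 members in VP and DLP, coloured by role, with filled points for adjusted p below 0.05. Only Ncaph in VP is filled, the mitosis genes all lie left of 0 in VP, and Kif4 stands apart in DLP at -0.81.

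The lobes themselves differed for more members. The third comparison set DLP against VP on the control diet, with the same control VP arrays as above. Of 36 members 10 passed the limma test, 1 as higher and 9 as lower, against 55.0% of all genes, of which 28.2% were higher and 26.8% lower. The median difference was -0.33 over the members and 0.00 over all genes. The members lower in DLP were Ncaph, Cdkn1b, Mcm2, Top2a, Rrm2, Pcna, Mcm4, Mcm5 and Cdk1, and Haspin was higher. Lobes did not overlap for 5 members, Ncaph, Cdkn1b, Mcm2, Mcm4 and Haspin, compared with 39.3% of all genes. Leaving out 1 array gave 8 to 20 members, with 20 when control VP 5 was left out.

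On the high fat diet 4 members passed, Ncaph, Cdkn1b and Mcm2 as lower and Haspin as higher in DLP, against 53.7% of all genes. Lobes did not overlap for 7 members, the same 4 besides 3 that missed the threshold (Rrm2, Pcna and Rrm1), compared with 44.4% of all genes. When control VP 2 and 3 were left out of the control diet comparison, 8 members (22.2%) passed, against 45.3% of all genes in that fit. Ncaph, Cdkn1b, Mcm2, Top2a and Rrm2 were lower and Bub1b, Haspin and Kif4 higher in DLP. Bub1b and Kif4 had their highest VP values on the arrays left out, which favoured higher differences. With those arrays the differences were 0.14 and 0.25, and without them 0.56 and 0.48. Kif4 had passed the filter through control DLP 2, 3 and 5 and control VP 2. Without control VP 2, only control DLP arrays carried it past the median, so a higher level in DLP was favoured by its selection. Pcna, Mcm4, Mcm5 and Cdk1 no longer passed, with limma adjusted p of 0.133, 0.164, 0.380 and 0.588. The median difference over mitosis genes was -0.31 with control VP 2 and 3 and 0.11 without them. These genes were high on that pair, so an upward shift was fixed in advance by leaving out those arrays. In the same fit without them, 10 members (27.8%) passed on the high fat diet, whose own arrays were unchanged, against 52.7% of all genes. Rrm2, Pcna and Rrm1 were among them.

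Ncaph had the largest difference of any member. Its means were 3.96 ± 0.23 in control DLP and 6.12 ± 0.27 in control VP (SD, n = 5 each), a fall of 2.16 on the log2 scale, or 4.48-fold, with limma adjusted p = 1.4e-11. On the high fat diet they were 3.54 ± 0.16 in HFD DLP (SD, n = 4) and 5.42 ± 0.14 in HFD VP (SD, n = 5), 3.67-fold lower, with limma adjusted p = 2.4e-10. The other probe set gave -1.79 on the high fat diet and -2.03 on the control diet. Without control VP 2 and 3 the control diet difference was -2.23. The lobe difference was thus present on both diets and with both probe sets. Ncapd2 differed by -0.33 on the control diet, with limma adjusted p = 0.0906. Among condensin genes from the further mitosis list, looked up after the Ncaph values were seen, Smc2 and Smc4 were lower in DLP on the control diet, with differences of -0.59 and -0.41. They did not pass on the high fat diet (-0.09 and -0.26), nor on the control diet without control VP 2 and 3 (-0.21 and -0.10). Ncapd3 and Ncaph2 of condensin II were higher by 0.53 and 0.27 on the high fat diet and by 0.36 and 0.33 on the control diet. Ncapg2, also of condensin II, was higher by 0.55 on the high fat diet and did not pass on the control diet (0.39).

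Cdkn1b, the inhibitor that keeps resting cells out of the cycle and a known tumour suppressor of the mouse prostate, averaged 5.21 ± 0.15 in control DLP and 6.46 ± 0.17 in control VP (SD, n = 5 each). It fell by 1.25 on the log2 scale, or 2.37-fold, with limma adjusted p = 2.9e-08. On the high fat diet it averaged 5.11 ± 0.14 in HFD DLP (SD, n = 4), from 4.98 to 5.30, and 6.41 ± 0.32 in HFD VP (SD, n = 5), from 6.08 to 6.94, a difference of -1.29 with limma adjusted p = 3.2e-08. A dimmer Cdkn1b probe set, above the array median on 2 arrays, differed by -0.40 on the high fat diet and -0.37 on the control diet, and did not pass on either. Cdkn1a, the other inhibitor, averaged 2.92 ± 0.12 in control DLP and 2.69 ± 0.28 in control VP, with limma adjusted p = 0.228. Ccnd1 averaged 5.00 ± 0.14 in control DLP and 4.86 ± 0.17 in control VP, a difference of 0.15 that did not pass. Another Ccnd1 probe set, above the array median on all 19 arrays, gave 0.57 on the control diet, with limma adjusted p = 0.0251. On the high fat diet it gave 0.34, with limma adjusted p = 0.224. A dimmer Ccnd1 probe set gave -0.11 on the control diet, with limma adjusted p = 0.579. The Ccnd1 call between lobes thus depended on the probe set.

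Haspin ran the other way. Its mean was 2.15 ± 0.15 in control DLP and 1.63 ± 0.10 in control VP (SD, n = 5 each), higher by 0.52 with limma adjusted p = 0.0044. The mean was 2.22 ± 0.23 in HFD DLP (SD, n = 4) and 0.98 ± 0.35 in HFD VP (SD, n = 5), higher by 1.24 with limma adjusted p = 6.2e-07. Since it passed the filter through its DLP values, a difference between the lobes was built into its selection.

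The S phase members had negative differences for 9 of 9 genes on both diets, and 1 passed on the high fat diet and 5 on the control diet. All genes passed at 55.0% on the control diet, a share close to 5 of 9. Without control VP 2 and 3, 6 of 9 were negative on the control diet and 2 passed. Mcm2 averaged 2.80 ± 0.10 in control DLP and 3.58 ± 0.27 in control VP, a difference of -0.78 (limma adjusted p = 1.1e-05), and 2.85 ± 0.16 in HFD DLP and 3.34 ± 0.22 in HFD VP, a difference of -0.50 (limma adjusted p = 0.00179). A second Mcm2 probe set, above the array median on all 19 arrays, gave -0.31 on the high fat diet and -0.26 on the control diet and passed on neither, with limma adjusted p of 0.277 and 0.328. For Mcm4, a second probe set above the median on 19 arrays gave 0.40 on the high fat diet, with limma adjusted p = 0.0384, and -0.10 on the control diet, with limma adjusted p = 0.622, so its call depended on the probe set. Rrm2 averaged 3.39 ± 0.37 in control DLP and 4.40 ± 0.71 in control VP, a difference of -1.01 that was -0.51 without control VP 2 and 3. The corresponding Rrm2 difference on the high fat diet was -0.56, with limma adjusted p = 0.0543. Pcna averaged 6.04 ± 0.10 in control DLP and 6.51 ± 0.38 in control VP, and Mcm6 3.56 ± 0.10 in control DLP and 3.87 ± 0.56 in control VP, control VP holding the wider spread in both cases.

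Mitosis genes were less uniform between lobes. Top2a averaged 3.25 ± 0.14 in control DLP and 4.23 ± 0.67 in control VP, a difference of -0.98 (limma adjusted p = 0.000457) that was -0.52 without the 2 high arrays. Cdk1 averaged 2.28 ± 0.25 in control DLP and 2.97 ± 0.79 in control VP, a difference of -0.69 (limma adjusted p = 0.0177). Mki67 averaged 2.80 ± 0.40 in control DLP and 3.43 ± 1.08 in control VP and did not pass, with limma adjusted p = 0.116. On the high fat diet, Mki67 averaged 2.48 ± 0.07 in HFD DLP and 2.51 ± 0.53 in HFD VP, and 12 of the 23 mitosis genes had negative differences, a nearly even split.

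**Figure D5:**
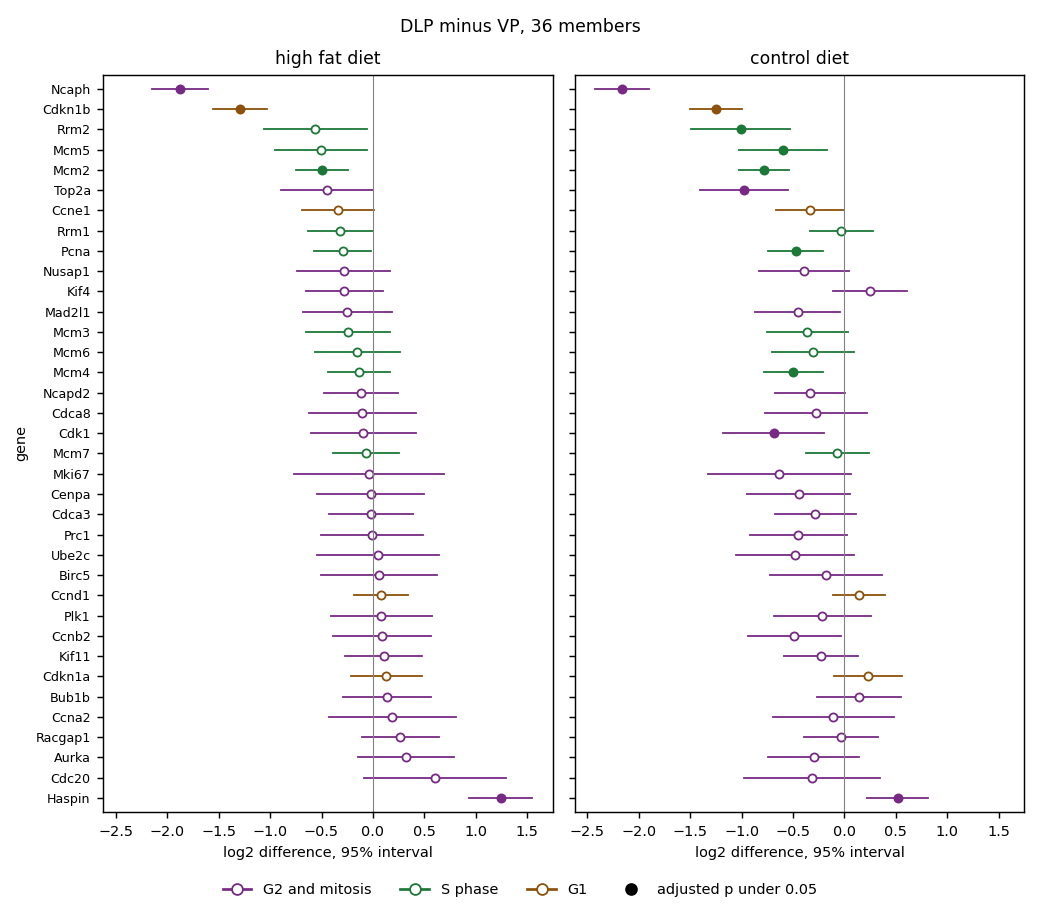
DLP minus VP log2 differences (horizontal axis) with limma 95% intervals for 36 members on the high fat and the control diet, coloured by role, with filled points for adjusted p below 0.05. Ncaph and Cdkn1b lie far left and Haspin right of 0 on both diets, and the S phase genes all lie left of 0.

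Other genes of the pathway were counted from lists chosen with earlier results known. In the diet comparison 0 of 18 further G1/S control genes, 0 of 27 replication genes and 0 of 34 G2 and mitosis genes passed the limma test in VP, and likewise in DLP. The smallest adjusted p in these lists was 0.318, 0.296 and 0.184 in VP and 0.404, 0.103 and 0.276 in DLP. Between lobes on the control diet, 3 of 18 G1/S genes were higher and 9 lower in DLP, where 55.0% of all genes passed in either direction. On the high fat diet 4 were higher and 8 lower, where 53.7% of all genes passed. Cdk6, the kinase partner of D cyclins, was lower on the control diet with a log2 difference of -1.96, and the inhibitor Cdkn2c with -0.88. Cdc25a, the phosphatase that activates Cdk2, was higher by 0.81 on that diet and E2f2 by 0.91. Of the 27 replication genes 4 were higher and 9 lower, and on the high fat diet 6 were higher and 6 lower. On the control diet Gins1 of the helicase complex was higher by 0.70 and Gmnn, the inhibitor of origin licensing, by 0.69, whereas the clamp loader Rfc4 was lower with -0.45 and the kinase Cdc7 with -0.79. Of the 34 G2 and mitosis genes 8 were higher and 7 lower on that diet. For these last 2 lists the share that passed on the control diet was below the 55.0% of all genes. On the high fat diet 12 of the 34 were higher and 2 lower, against 27.2% of all genes higher and 26.5% lower. The G2 and mitosis genes named by smallest p on the control diet included Wee1, the kinase that restrains Cdk1, at 0.95. The others were Spc25 of the kinetochore at 1.09, securin Pttg1 at 0.54 and Cks1b at -0.69.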

How the data were processed

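RNA of mouse prostate lobes was measured on 19 arrays in 4 groups, assigned from the sample titles. The deposited values are log10 values, a base inferred from the steps of the hybridization controls (0.53, 0.74 and 0.57, against nominal steps of 0.52, 0.70 and 0.60). MAS5 is named per the submitters' processing notes. The same set of values recurs on every array. Values ran from 0 to 3.99 and were turned to log2 with an offset of 1 and no further normalization. Of 45101 probe sets, 64 were controls, 34945 had 1 symbol, 932 several and 9160 none, and 34741 symbols were updated by gene identifier. Each of 18193 genes was read from its brightest probe set on average, and 11715 genes lay above the array median of 1.85 on at least 4 arrays.

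All groups entered 1 limma fit with 1 weight per lobe (1.392 for DLP and 0.742 for VP), since the lobes differed in spread, and a trended variance prior, with Benjamini-Hochberg adjustment over all 11715 genes. For single members an exact permutation test over arrays, two-sided, was added. Members and lists were chosen with earlier results of these data known. Values of every array are given for members past the threshold in a diet comparison or, where fewer than 4 passed, the 4 with the smallest p; for up to 5 members in each direction with the smallest p among those past the threshold between lobes on the control diet; and for a list of always-named members (Mki67, Top2a, Cdk1, Ncaph, Haspin, Kif4, Mcm2, Mcm6, Pcna, Rrm2, Ccnd1, Cdkn1a and Cdkn1b). Up to 4 genes per pathway list were named by smallest p. Array values of any other member were chosen after they were seen. Promoters came from RefSeq (GRCm38.p6). Alternatives were equal weights, 1 weight per array, each lobe alone, the replicate number as a block, no filter, a filter at the 75th percentile, other probe set rules, an offset of 16, a constant variance prior, a threshold of 0.1, and leaving out arrays, including control VP 4 and HFD VP 3, known from earlier results to stand apart. Leaving out control VP 2 and 3 was added after seeing the data. The fit was tested on simulated data. R 4.3.3, limma 3.58.1, Python 3.11.15, pandas 2.3.3, numpy 2.4.6 and scipy 1.17.1 were used. The number of arrays limits the precision.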

Additional observations from a re-analysis of the deposited data

Results flagged for a closer look

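Among 72 groups of values examined, of the members given in full and of the mean scores, 8 held a sample far from the others; chance gives about 1 in 20 groups. In the ventral prostate on the high fat diet, HFD VP 3 stood high for Pcna at 6.69, with the next array at 6.20, and for Rrm1 at 3.76, with the next at 3.37. In the ventral prostate on the control diet, control VP 4 stood low for Haspin at 1.46, with the next at 1.64, and high for Cdkn1b at 6.76, with the next at 6.45. Control VP 5 stood low for the inhibitor Cdkn1a at 2.2, with the next at 2.77. In the dorsolateral prostate, HFD DLP 2 stood high for Ncaph at 3.78, with the next at 3.48. Control DLP 2 stood high for Mki67 at 3.50, with the next at 2.72, and for the mean of the mitosis genes at 0.22, with the next at -0.07. Control VP 2 and control VP 3, the arrays with the highest mitosis values, lie close to each other, and a rule that looks for 1 distant sample does not pick out a pair.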

How the results depend on the processing

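Between diets in VP, 20 genes passed in all, and 130 with equal weights, 47 with 1 weight per array, 35 with an offset of 16, 31 without control VP 4 and HFD VP 3, 68 at an adjusted p under 0.1, 8 with the mean of probe sets, 6 with a constant prior, 4 without control VP 2 and 3, and 0 with each lobe fitted alone. The 1 member that passed there, Ncaph, became 2 with equal weights and 0 with the 75th percentile filter, the mean of probe sets, a constant prior, each lobe alone, without control VP 4 and HFD VP 3, and without control VP 2 and 3. In DLP, 6 genes passed, and 0 with equal weights, the replicate block or each lobe alone, 2 without control VP 4 and HFD VP 3 and 16 at an adjusted p under 0.1. The 0 members in DLP became 1 with a constant prior, without control VP 2 and 3, and at an adjusted p under 0.1. For the difference between the diet differences, 1 gene passed, and 0 with the mean of probe sets or the replicate block and 3 without control VP 4 and HFD VP 3. Between lobes on the high fat diet, 4 members passed, and 8 with the replicate block, 10 without control VP 2 and 3, and 10 at an adjusted p under 0.1. Counts at an adjusted p under 0.1 differ by the threshold alone. Without control VP 2 and 3, the high fat diet lobe differences of Rrm2, Pcna and Rrm1 were unchanged, with smaller limma SEs. The SE was 0.17 against 0.24 for Rrm2, 0.11 against 0.13 for Pcna and 0.13 against 0.15 for Rrm1. The cause of the other changes was not tested.

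Leaving out 1 array at a time gave 3 to 25 genes and 0 to 1 members in VP, 1 to 9 genes and 0 to 1 members in DLP, and 0 to 2 genes for the difference between them. Between lobes it gave 5944 to 6566 genes and 8 to 20 members on the control diet, and 5845 to 6450 genes and 4 to 7 members on the high fat diet. The mean difference of mitosis genes in VP then ran from -0.65 to -0.32. Same-numbered arrays were not taken as pairs: the correlation of their deviations ran from -0.105 to 0.460 between diets in VP and from -0.154 to 0.171 in DLP. Between DLP and VP, which may share mice, it ran from 0.002 to 0.147 on the high fat diet and from -0.065 to 0.190 on the control diet. With the replicate block 25 genes passed in VP. Between lobes, the block brought Rrm2, Top2a and Pcna past the threshold on the high fat diet (limma adjusted p of 0.0124, 0.0387 and 0.0446) and Mki67 on the control diet (0.0489). No difference of a named member turned its direction past the threshold, and of its settings 1804 kept their side, 37 gained and 25 lost the threshold. Probe sets near the array median, such as those of Kif4 and Haspin, limit how far their differences can be read.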
